A study of Cochliomyia hominivorax with 18 samples.

Results

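Adult midguts of the New World screwworm, Cochliomyia hominivorax, taken while a production colony was reared with tetracycline, were set against adult midguts taken before the antibiotic was given. The comparison rests on 6 of the 18 libraries of the series, 3 from adults during tetracycline (on-Tc) and 3 from untreated adults (control), and these were chosen by stage and treatment in the sample titles. The other 12 libraries are adults after withdrawal (post-Tc, 3 libraries) and larvae of the same 3 treatments (9 libraries). All were production flies, and the labels give no genotype, age, sex, dose or length of exposure for any group. The libraries titled control are taken to be those the series describes as before rearing with tetracycline, so date of collection and treatment cannot be told apart. Nothing in the labels tells whether libraries 1 to 3 of a group are separate animals, pools or cages, and the p-values below reflect library-to-library spread, which may be technical.

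The screwworm is a blow fly whose larvae feed in wounds of living mammals, and it is controlled by releasing sterile flies from mass rearing. Tetracycline blocks protein synthesis by bacterial ribosomes and can also impair the ribosomes of mitochondria, which descend from bacteria. In insect rearing it is used to keep conditional lethal transgenes switched off, and the midgut, where food is digested and most gut bacteria live, is in direct contact with the food. The series asks whether rearing with it leaves lasting effects on the gut.

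Library totals ran from 24662546 to 79783813 counts on-Tc and from 19158409 to 60112898 in controls. The table lists 22420 predicted transcripts by a gene number and a transcript number, of which 5070 had 0 counts in the 6 libraries. The deposited table pairs no gene names with these IDs and no annotation was used here, so transcripts are given by ID, gene families and markers of the midgut or of other tissues could not be checked, and no sequence is shown. Levels are TMM-scaled CPM, read counts made comparable between libraries of different depth, and are not divided by transcript length. In a bulk sample, fewer cells of a type and less RNA per cell cannot be told apart.

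Of 11435 transcripts tested, 27 (0.236%) passed edgeR's quasi-likelihood test at a false discovery rate (FDR) of 0.05, 6 higher on tetracycline (0.0525%) and 21 lower (0.184%). The fit held the 9 adult libraries. The post-Tc adults added to the estimate of spread and also took part in the filter on low counts and in the scaling. With only the 6 libraries compared, 0 transcripts passed (1946 had an unadjusted p under 0.05), and the 4 transcripts named below had an edgeR FDR of 0.155 each. In these 27 the 3 on-Tc libraries lay beyond all 3 controls. Over all transcripts tested, the groups did not overlap in 24.6%, so a gap between groups was common and the call rests on the spread within groups.

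Of the called transcripts that rose, the one with the highest mean CPM was g4404.t1, which stood at 1020, 686 and 1133 CPM in on-Tc adults, against 113, 170 and 105 CPM in control adults. Its lowest on-Tc library lay far above its highest control, and between 15964 and 82997 reads on-Tc and 2382 and 11237 reads in controls stood behind these levels. The log2 change was 2.87 ± 0.31 (SE; edgeR FDR 0.0251), a 7.30-fold rise, and post-Tc adults averaged 189 ± 37.9 CPM (SD, n = 3). The second, g2461.t1, had 341, 326 and 315 CPM in on-Tc adults, against 84.1, 76.9 and 46.4 CPM in control adults. The on-Tc libraries were closely grouped, at 327 ± 13.1 CPM (SD, n = 3), while controls averaged 69.1 ± 20.03 CPM (SD, n = 3). The change was 2.24 ± 0.25 (log2, SE; edgeR FDR 0.0251), or 4.73-fold, and the post-Tc level of 125 ± 12.5 CPM (SD, n = 3) lay between the other groups.

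**Figure D1:**
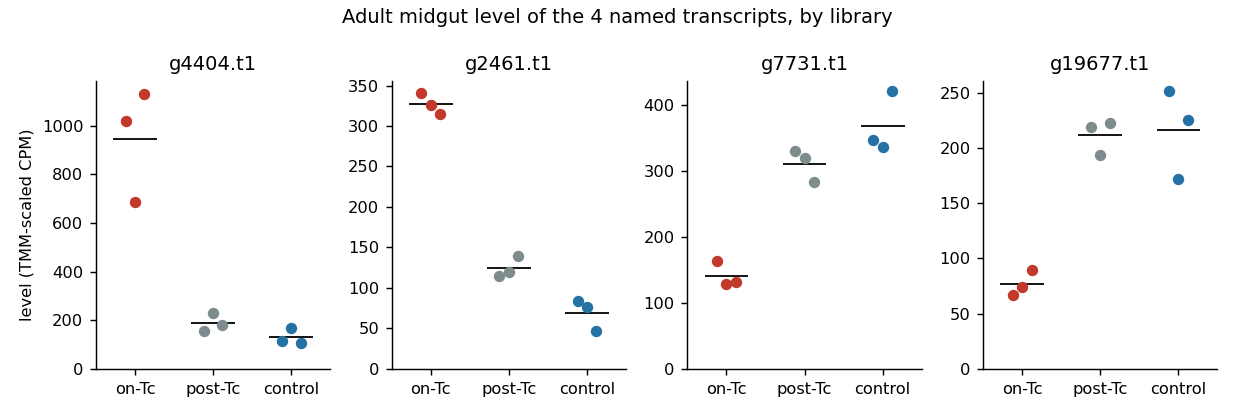
Level in TMM-scaled CPM (linear axes from 0) of the 2 called transcripts that rose and the 2 that fell with the highest mean CPM, in each adult library (points) with the group mean (bar). All on-Tc points of g4404.t1 and g2461.t1 lie above the controls, and all on-Tc points of g7731.t1 and g19677.t1 lie below them.

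Among the falls, g7731.t1 was at 163, 129 and 131 CPM in on-Tc adults, against 348, 337 and 422 CPM in control adults. All 3 on-Tc libraries lay well below the lowest control. The log2 change was -1.39 ± 0.20 (SE; edgeR FDR 0.0437), a 2.61-fold fall. For g19677.t1 the levels were 67.1, 74.5 and 89.2 CPM in on-Tc adults, against 251, 172 and 225 CPM in control adults. Its log2 change was -1.49 ± 0.21 (SE; edgeR FDR 0.0437), a 2.81-fold fall, again with a clear gap between the groups. Post-Tc adults averaged 312 ± 24.1 CPM (SD, n = 3) for g7731.t1 and 211 ± 15.8 CPM (SD, n = 3) for g19677.t1, both nearer to the controls than to on-Tc adults.

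The 21 transcripts that fell did so by similar amounts in each library. Their median log2 ratio to the control mean was -1.76 in on-Tc 1, -1.75 in on-Tc 2 and -1.72 in on-Tc 3. The falls ranged from 2.52-fold to 4.79-fold with a median of 3.203, and the lowest control exceeded the highest on-Tc library by 1.82-fold to 3.49-fold. Together the 21 transcripts summed to 444, 419 and 457 CPM in on-Tc adults, to 1142, 1109 and 1183 CPM in post-Tc adults, and to 1258, 1082 and 1371 CPM in control adults. The replicate coefficient of variation of the fallen transcripts was 11.2% on-Tc and 16.9% in controls, in the median.

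The 6 that rose were more varied, from 2.75-fold to 41.2-fold with a median of 6.77. Their sums were 1438, 1103 and 1589 CPM in on-Tc adults, 307, 379 and 353 CPM in post-Tc adults, and 222, 267 and 175 CPM in control adults, most of it from g4404.t1. The median coefficient of variation was 25.9% on-Tc and 28.2% in controls. Called transcripts were chosen for these differences, so the sums and ratios describe them and add no test. Of the 27, 2 come from genes for which the table lists further transcripts. Such genes are few in the whole table, which lists 22420 transcripts under 21161 gene numbers. Their share among the transcripts tested is not given here, so the 2 are not read as a result.

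The list depended on single libraries. It was 0 without on-Tc 1, on-Tc 3, control 1, control 3 or any of the 3 post-Tc libraries. The post-Tc libraries share in the filter, the scaling and the estimate of spread but are not compared. The list held 10 without control 2 (1 higher, 9 lower, 7 of them among the 27), and 21 without on-Tc 2. Those 21 had the opposite balance, 19 higher and 2 lower, with 6 among the 27. With no low-count filter 12 passed, 6 in each direction. In these 9 fits g4404.t1 passed in 2 and g2461.t1 in 1, while g7731.t1 and g19677.t1 passed in none, though the direction of all 4 stayed the same.

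**Figure D2:**
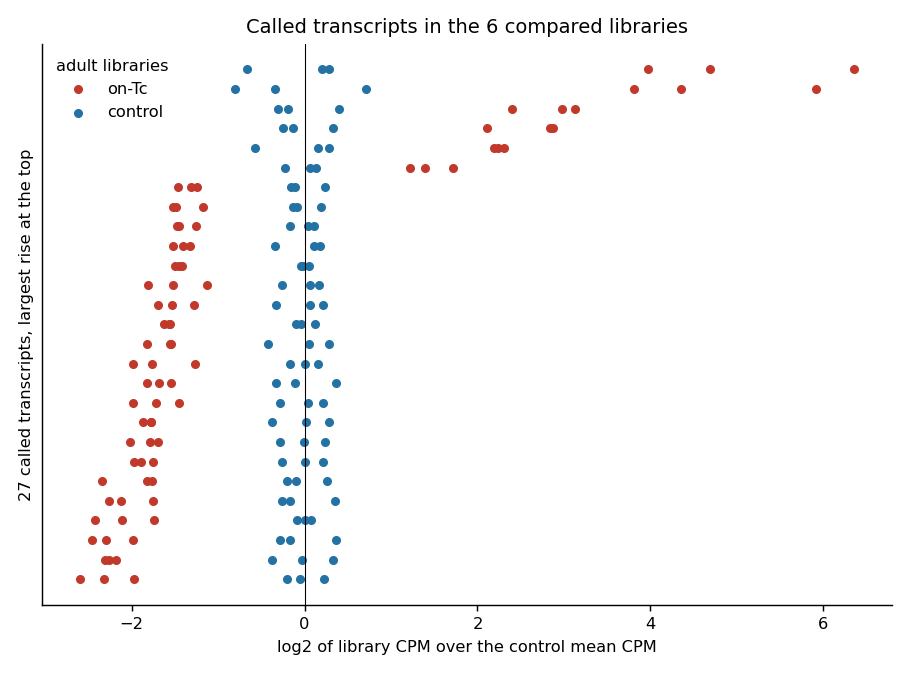
Log2 ratio of each library's CPM to the control mean for the 27 called transcripts (1 row each), with on-Tc libraries in red and controls in blue. For the falls the median log2 ratios of the on-Tc libraries are -1.76 to -1.72, with single transcripts spread to either side. The fold changes of the rises run up to 41.2.

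In the median, rarely read transcripts were lower and frequently read ones higher in on-Tc adults than in controls. The tested transcripts were divided into 3 classes of equal size by mean CPM over the 6 libraries. The low class (3812 transcripts, up to 3.29 CPM) had a median log2 change of -0.49, the middle class (3811) one of 0.00049, and the high class (3812, from 23.7 CPM) one of 0.12. In the low class 163 transcripts were above all controls in all on-Tc libraries and 789 were below. In the high class the balance was the other way, with 758 above and 243 below. The filter on low counts can be met by any 3 adult libraries. A rarely read transcript that was low on-Tc could enter through control or post-Tc libraries, and one high only on-Tc just through the on-Tc libraries. The low-class counts therefore lean to the lower side by selection and add no test. Because CPM is not divided by length, these classes rank transcripts by reads and not by molecules. Calls at FDR 0.05 were mostly lower in each class. There were 1 higher and 5 lower in the low class, 2 and 7 in the middle class, and 3 and 9 in the high class. These calls are too few to tell whether they follow the pattern.

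**Figure D3:**
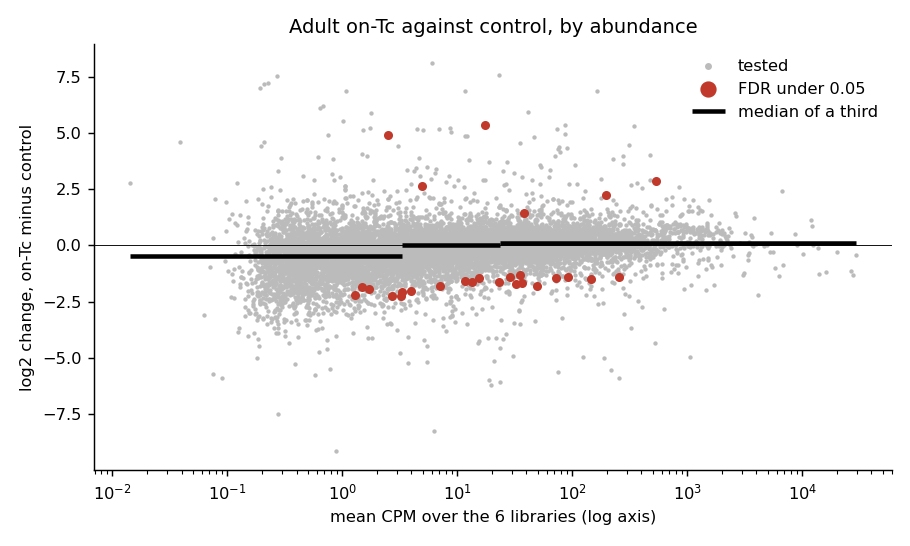
Log2 change of adult on-Tc against control (vertical) over mean CPM of the 6 libraries (log axis) for the 11435 transcripts tested, with the 27 called in red and the median of the low, middle and high class as a black bar. The bars step up, at -0.49, 0.00049 and 0.12.

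The pattern was seen in each on-Tc library. A library's tilt was taken as the median log2 deviation of the low class minus that of the high class, each deviation measured from the mean of the 6 libraries, so that library scaling cancels. The tilt was -0.13, -0.36 and -0.29 in on-Tc 1, 2 and 3, against 0.31, 0.16 and 0.52 in control 1, 2 and 3. The means were -0.26 ± 0.12 on-Tc and 0.33 ± 0.18 in controls (log2, SD, n = 3 each), a difference of -0.59 with no overlap (exact permutation test, two-sided, p = 0.1, the smallest that 3 against 3 allows). Post-Tc adults, at 0.22, 0.26 and 0.48, lay among the controls. Of the 6 libraries on-Tc 1 was the deepest and control 3 the shallowest. With all libraries thinned to 19158409 counts the difference was -0.55. Leaving out each library in turn gave -0.67 to -0.51. Keeping all transcripts with a read, without the filter on low counts, gave a smaller difference of -0.34. How much of the tilt comes from the filter was not tested further.

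The low class was lower and the high class higher in the median under 3 scalings, while the sign of the middle class differed between them. With library totals alone the medians were -0.53, -0.04 and 0.08, and with RLE size factors -0.47, 0.02 and 0.14. At an unadjusted p under 0.05, which 21.2% of all transcripts met, 1112 were higher and 1307 lower with TMM factors, 1159 and 1258 with RLE, and 595 and 1387 with library totals alone.

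Fewer transcripts were detected at equal totals in on-Tc adults, and also in post-Tc adults, than in controls. With each adult library thinned to 19158409 counts, on-Tc libraries held 13611, 12796 and 13105 transcripts with at least 1 read, post-Tc libraries 13567, 13518 and 14021, and control libraries 14061, 14197 and 14175. All on-Tc and all post-Tc libraries lay below the lowest control, and post-Tc 1 and post-Tc 2 lay below on-Tc 1. The difference in means between on-Tc and control libraries was -974 (exact permutation test, two-sided, p = 0.1, the smallest possible). It was -560 when detection meant at least 10 reads.

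At these totals 183 transcripts were seen in all 3 controls and in no on-Tc library, and 27 in all 3 on-Tc libraries and in no control. The post-Tc adults gave a smaller imbalance against the same controls, with 92 seen in all controls and no post-Tc library and 34 seen the other way round. Of the 183, 142 had a read in at least 1 post-Tc library. The 183 were at the edge of detection, with a median of 2.67 and at most 11.7 reads per control library, so absence on-Tc means fewer reads than this depth can show and not a silent gene.

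**Figure D4:**
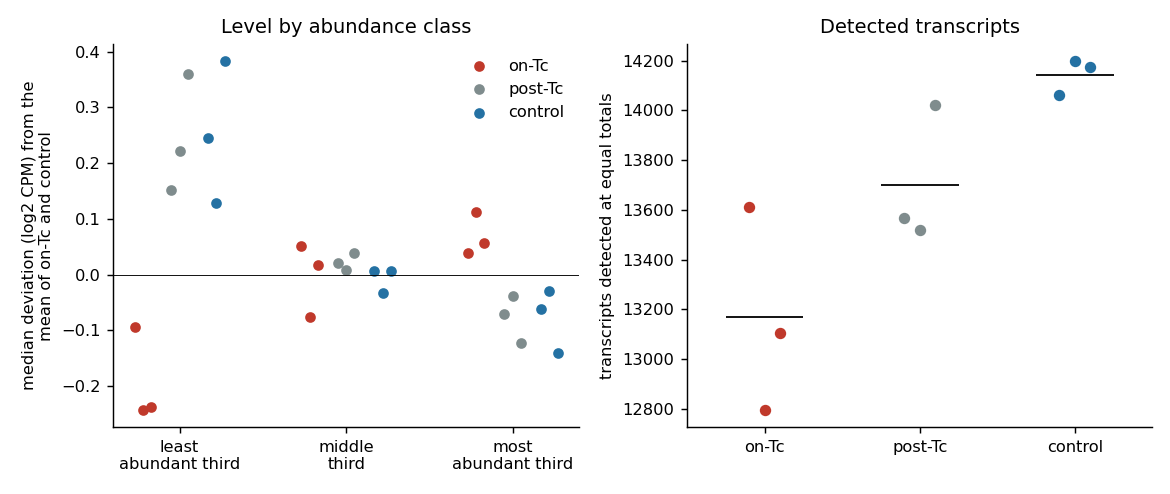
Left, median deviation in log2 CPM from the mean of the on-Tc and control libraries for each class of abundance, 1 point per adult library. Right, transcripts with at least 1 read after thinning to 19158409 counts, with group means as bars (axis not from 0). On-Tc libraries are below all controls in the low class and above them in the high class, and hold 12796 to 13611 transcripts, against 14061 to 14197 in controls. Post-Tc libraries hold 13518 to 14021 transcripts.

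Of the 100 transcripts with the highest mean CPM (at least 1340 CPM), 0 were called. Over all transcripts tested 0.236% were called, so the 0 is not read as a result about the 100. Among the 100, 59 were higher on tetracycline and 41 lower, and the smallest edgeR FDR was 0.104. Groups did not overlap for 32 of those that were higher and 4 of those that were lower. The shares were 12.1% higher and 12.6% lower over all transcripts tested. In the high class, to which the 100 belong, they were 19.9% higher and 6.4% lower. The 10 most abundant transcripts of each library took 18.02%, 16.3% and 13.9% of counts in on-Tc adults, against 31.8%, 17.7% and 18.1% in control adults. The groups overlapped and the difference of -6.47 percentage points did not pass (exact permutation test, two-sided, p = 0.2); without control 1 it was -1.86.

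Over the whole RNA the on-Tc libraries lay closer to each other, in the mean, than the controls did, and so did the post-Tc libraries. Bray-Curtis dissimilarity of CPM is 0 for identical libraries and 1 for libraries with no transcript in common. It was 0.181 to 0.210 between on-Tc libraries, 0.163 to 0.206 between post-Tc libraries and 0.203 to 0.318 between controls. Between an on-Tc and a control library it was 0.198 to 0.371. The mean between groups exceeded the mean within groups by 0.0333 (exact permutation test, one-sided, p = 0.1, the smallest possible), but by 9.04e-05 without on-Tc 3, by 0.0139 without on-Tc 1, and by 0.0526 and 0.0755 without control 3 and control 2. Pairs of control libraries averaged 0.278, about as far apart as pairs of an on-Tc and a control library at 0.269. Pairs of on-Tc libraries averaged 0.194 and pairs of post-Tc libraries 0.189. The mean was 0.254 between post-Tc and control libraries and 0.285 between on-Tc and post-Tc libraries.

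Transcripts with consecutive gene numbers had the same sign of change more often than transcripts with distant numbers. Among 8098 pairs of consecutive numbers, 57.8% had the same sign of change and the log2 changes had a Pearson correlation of 0.303. At a distance of 10 numbers the share was 51.0% and the correlation 0.0145 (6482 pairs), and at 50 numbers 50.4% and -0.0014 (6040 pairs). For post-Tc adults against the same controls, 54.4% of pairs of consecutive numbers had the same sign. Pairs share the same libraries, and reads of near-identical copies could have been split between them in the authors' counting. Whether consecutive numbers are neighbours on the genome is not given in the sources used here.

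At an unadjusted p under 0.05, 12 runs of at least 4 consecutive numbers had the same direction, 7 higher and 5 lower. They held 51 transcripts in all and 2 of the 27 called. Over all transcripts tested 21.2% met that p and 0.236% were called. Run members were chosen by that p, so the 2 are not read as a result. The run with the largest rise held 4 transcripts that summed to 166, 43.7 and 384 CPM in on-Tc adults, against 25.8, 11.7 and 11.6 CPM in control adults, and 1 of its members was called. A second run of 4, with no member called, summed to 267, 63.2 and 282 CPM on-Tc and 28.9, 15.5 and 13.7 CPM in controls. In both of these runs on-Tc 2 was the lowest of the on-Tc libraries, though still above each control.

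The deepest fall was in a run of 5 transcripts, which summed to 58.6, 279 and 91.3 CPM in on-Tc adults, to 802, 6556 and 1299 CPM in post-Tc adults, and to 8971, 3247 and 831 CPM in control adults. The means differed 30.4-fold and the groups did not overlap, but the controls themselves spanned a wide range and none of the 5 passed (edgeR FDR 0.0985 to 0.161). An abundant run of 4 summed to 31871, 17108 and 24331 CPM on-Tc and 6114, 14484 and 11244 CPM in controls, a 2.30-fold difference in means with no member called. Summed levels did not overlap between the groups in 12 of the 12 runs, which their selection favours.

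**Figure D5:**
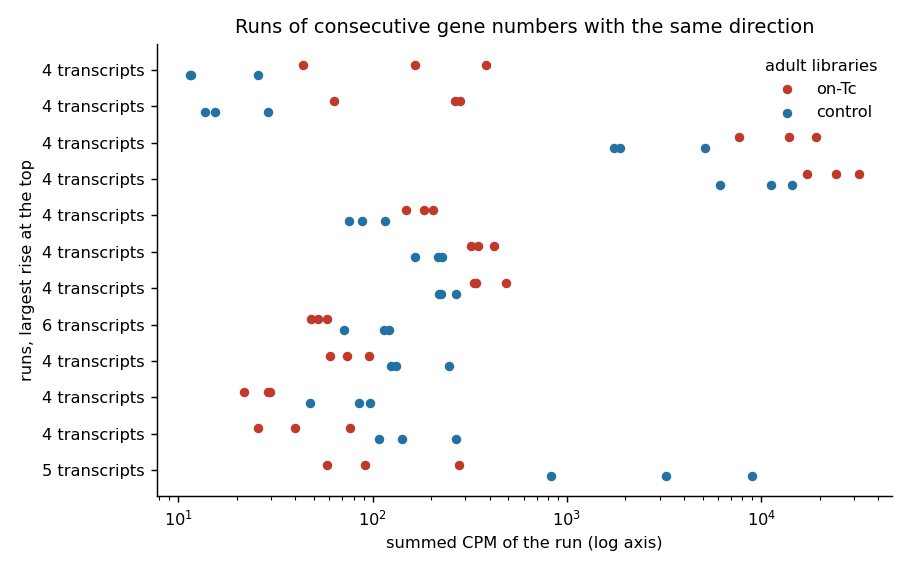
Summed CPM (log axis) of the 12 runs of consecutive gene numbers with an unadjusted p under 0.05 and the same direction, on-Tc libraries in red above controls in blue in each row. The top rows include the run at 43.7 to 384 CPM on-Tc and 11.6 to 25.8 CPM in controls, and the bottom row is the run at 58.6 to 279 CPM on-Tc and 831 to 8971 CPM in controls.

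In larvae reared with tetracycline most of the 27 transcripts had the same sign of change as in adults. It was the same for 23 of the 27, all 6 that rose and 17 of the 21 that fell, against 71.4% of the 2249 transcripts with an unadjusted p under 0.05 in adults and 60.9% of the 10636 transcripts tested in both stages. The median log2 change of the 6 was 0.97 in larvae and 2.76 in adults, and that of the 21 was -0.29 in larvae and -1.68 in adults. Larval and adult comparisons share no library. In larvae 0 of 11584 transcripts passed edgeR's test (0%), and 284 (2.45%) had an unadjusted p under 0.05. For g4404.t1 larvae had 59.7 ± 50.3 CPM on-Tc and 21.9 ± 3.74 CPM in controls (SD, n = 3 each), a log2 change of 1.45 ± 0.56 (SE) that did not pass edgeR's test (FDR 0.999).

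A difference between the stages was not established for any transcript. The effect in adults minus that in larvae passed edgeR's test in 0 of 12599 transcripts (0%), the smallest FDR being 0.0906. An unadjusted p under 0.05 was found for 903 (7.17%). The count was 0 by limma-voom, 52 by DESeq2, and 1 by edgeR without adult control 1. Of the 27, 13 had an unadjusted p under 0.05 for this difference, each with the sign of the adult change, on which the 27 had been chosen. The tilt in larvae averaged -0.084 ± 0.25 on-Tc and 0.096 ± 0.19 in controls (log2, SD, n = 3 each). It was taken over the transcripts tested in larvae, with classes drawn from larval levels. The adult difference minus the larval one was -0.41 (exact permutation within stages, 400 splits, two-sided, p = 0.26). Shuffling treatment within each stage assumes no effect in either, so this p-value cannot decide whether the stages differ.

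Detection at equal totals was also lower in larvae, with 13820, 13737 and 13900 transcripts on-Tc, 14109, 14226 and 13031 post-Tc, and 14535, 14545 and 14155 in controls, each at 30221028 counts. All on-Tc larvae lay below all control larvae, but post-Tc 3 was the lowest of the 9 larval libraries. Larval controls all carried a 1 as the digit after the library code while larval on-Tc libraries carried 2, 1 and 2; in adults both groups carried 2, 1 and 2. What the digit stands for is not given, and its part in the larval result was not tested.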

How the data were processed

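Poly(A) RNA libraries of 18 midgut samples were made with NEBNext kits, per the labels' protocols. The deposited values are raw counts for each predicted transcript, judged from their whole numbers and unequal column sums. The submitters' processing notes list Trimmomatic, STAR, featureCounts and DESeq2. Tool versions, genome build, annotation and strand setting were not given in the sources used here. Among adult counts, even values made up 63.0% to 71.3% of those from 1 to 20, the pattern of read pairs counted as 2, so halved counts were tried. Columns were matched to samples by library code, and 0 columns were left unused. No 2 libraries of a group agreed within sampling noise (chi-square divided by its degrees of freedom, 211 to 1012).

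The main test was that of edgeR 4.0.16 (R 4.3.3) over the 9 adult libraries with a mean per group (filterByExpr with minimum count 10 and minimum total 15, TMM, glmQLFTest, Benjamini-Hochberg over all transcripts tested). Standard errors were derived from the F statistic. The stage difference used all 18 libraries. Log2 CPM had a prior count of 2. Libraries were thinned without replacement. Other tools were limma 3.58.1 (voom) and DESeq2 1.42.0, beside other scalings, filters and covariates, and leaving out libraries. The test was checked on simulated data. Figures used matplotlib 3.10.9.

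The comparison and its tests were chosen with earlier results of these data known, and the tilt and the runs after their values were seen. The transcripts named are the 2 that rose and the 2 that fell with the highest mean CPM among those past FDR 0.05 whose groups did not overlap; without gene names no more IDs are given, and gene lists fixed by name could not be used. For the stage difference no transcript met the rule.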

Additional observations from a re-analysis of the deposited data

How the results depend on the processing

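The count of 27 transcripts for on-Tc against control in adults stayed within 1.5 times with limma-voom (23, 20 of them shared), RLE factors (26), halved counts (36), transcripts summed per gene number (27) and all 18 libraries (29, of which 21 were higher and 8 lower, and 7 shared). It was 1141 with DESeq2 (524 higher, 617 lower), 45 with a filter of 1 CPM in 3 libraries and 12 with no low-count filter. It was 0 with library totals only, an added log2 fold threshold of 1, the library-name digit as a covariate, only the 6 libraries compared, or only the libraries with digit 2, and it ranged from 0 to 21 with a library left out. For all of these the cause was not tested. With the replicate number as a block the count was 0 (1921 at an unadjusted p under 0.05), and the 4 named transcripts had an edgeR FDR of 0.134 to 0.16. The labels do not say whether the numbers pair the samples. The deviations of same-numbered on-Tc and control libraries correlated at -0.38, -0.03 and -0.30. Of the 3 on-Tc libraries, 0 correlated best with its own number. These few correlations cannot decide whether the samples were paired. The 4 named transcripts kept their direction under the alternatives run. The stage difference had 52 calls with DESeq2 and from 0 to 1 with a library left out. The detection difference ranged from -1194 to -786, the share of the 10 most abundant transcripts from -8.86 to -1.86 percentage points, and the Bray-Curtis difference from 9.04e-05 to 0.0755 with a library left out; 3 against 3 cannot pass 0.05, so these p-values say nothing on stability.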

Other observations

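The typical spread between libraries was largest in adult controls, with a median within-group SD of log2 CPM of 0.36 on-Tc, 0.32 post-Tc and 0.42 in controls. A typical 95% interval of a fold change, built with 6 degrees of freedom, extended 1.82-fold to either side, wider than the median absolute change of 1.36-fold. The edgeR p-values rest on more degrees of freedom, so an interval matched to that test would be narrower. Across the 10636 transcripts tested in both stages, which are not independent replicates, the adult and larval log2 changes had a Pearson correlation of 0.230 and a Spearman correlation of 0.293. Among the runs of consecutive gene numbers, the run of 5 with the deepest fall in adults had the same sign in larvae for 0 of its 5 members, while the run of 6 transcripts that were lower in adults (52.3, 58.1 and 48.3 CPM in on-Tc adults, 122, 71.7 and 114 CPM in control adults) had it for 5 of 6.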
